A study of Mus musculus with 3 samples.

Results

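The genes described here are 35 genes of glucose use in mouse lung immune cells: glucose transport, glycolysis, lactate handling, gluconeogenesis, the pentose phosphate pathway and the regulator Hif1a. They were found by exact symbol among the 32285 genes of the count table, where they take 36 entries because Aldoa is listed under a second identifier that held 1 UMI (unique molecular identifier, a counted transcript). None is missing. The cells come from the lungs of mice aged 3 months, sequenced as single cells in 1 library for each treatment, labelled PD00, Model and Control. The title describes PD00 as a peptidomimetic and speaks of cells induced by ovalbumin (OVA), the egg white protein used to provoke allergic airway inflammation. The labels do not say whether the PD00 library received ovalbumin, how many animals a library pools, or which agent the Control library received, and the tissue label calls the lung healthy in all 3.

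Glycolysis splits glucose into pyruvate and yields ATP without oxygen, and pyruvate can leave the cell as lactate. Gluconeogenesis runs most of these steps backwards, with fructose bisphosphatase (Fbp1) undoing the step that phosphofructokinase commits. The pentose phosphate pathway branches off at glucose phosphate, first producing NADPH, which feeds the oxidative burst and fatty acid synthesis, and then recycling pentoses into glycolytic sugars. Activated T cells and inflammatory macrophages are known for high glycolysis, neutrophils depend on it, and resident alveolar macrophages are known for low use of glucose and high use of lipid.

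Cells were assigned to 16 immune gates by counts of detected marker genes, and UMIs were summed per gate and library and scaled to 1000000 counts per sum (CPM). After filtering, the PD00 library held 9373 cells, the Model library 11285 and the Control library 9368, with 76914274, 79690635 and 77245146 UMIs, of which 6263, 7043 and 6806 cells passed a single immune gate. Levels of the defining genes follow from the gate rules, so they are no check of the cell types. Cd3e stood between 435 and 461 CPM in T cells. It was at 0 in NK cells and ILC2 (group 2 innate lymphoid cells), whose gates admit no cell with a Cd3e UMI. C1qa, a marker counted for the C1q-high macrophages, stood between 3767 and 5093 CPM there. Alveolar macrophages held 980 CPM of their marker Plet1 in the PD00 library and 788 in the Model library, against 2174 in the Control library. Numbers of cells differed widely: 909, 446 and 2427 alveolar macrophages, 328, 429 and 162 C1q-high macrophages, 614, 829 and 875 neutrophils, 2228, 2699 and 1670 T cells, in the order PD00, Model, Control. Eosinophils (542, 578 and 16) and Gpnmb Trem2 macrophages (272, 259 and 3), a gate named by 2 of its markers, have too few Control cells for a comparison with that library. Between 31 and 43 cell barcodes were shared by a pair of libraries, and doublets were removed at 1 score in all 3.

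With 1 library per treatment no test between treatments is possible. A gene counts as measured in a gate when it has at least 50 UMIs over the pair of sums, and it is called higher or lower when its CPM differ at least 1.5-fold and the exact 95% interval of the ratio leaves out 1. These intervals cover counting error only, so a call separates 2 libraries, not 2 treatments, and animals, dissociation and sequencing cannot be told apart from treatment. In the 3' count data used here, levels of one gene are compared between gates and libraries, never levels of different genes.

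The promoters of 5 members whose values carry the results below are shown, because many glycolytic genes are textbook targets of the hypoxia-inducible factor that Hif1a encodes. Each is the RefSeq window (GRCm38.p6) of 250 bases before and 50 bases from a transcript start, 5′ to 3′ on the gene's strand, with capitals marking the core of the hypoxia response element (ACGTG or GCGTG, either strand, so also CACGT and CACGC). Adjoining matches may overlap.
Fbp1, chr13:62888233-62888532, minus strand: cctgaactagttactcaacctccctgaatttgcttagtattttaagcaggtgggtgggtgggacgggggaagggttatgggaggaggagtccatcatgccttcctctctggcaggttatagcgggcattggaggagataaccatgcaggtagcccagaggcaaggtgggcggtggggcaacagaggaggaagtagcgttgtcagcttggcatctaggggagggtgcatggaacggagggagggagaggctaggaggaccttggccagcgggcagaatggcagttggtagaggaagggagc
Pgk1, chrX:106186850-106187149, plus strand: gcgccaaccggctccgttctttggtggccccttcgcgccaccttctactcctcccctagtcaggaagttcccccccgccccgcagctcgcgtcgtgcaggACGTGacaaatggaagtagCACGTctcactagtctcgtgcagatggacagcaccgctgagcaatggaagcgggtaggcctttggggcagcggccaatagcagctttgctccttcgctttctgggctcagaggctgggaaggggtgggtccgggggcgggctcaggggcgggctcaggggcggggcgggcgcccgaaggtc
Ldhb, chr6:142507908-142508207, minus strand: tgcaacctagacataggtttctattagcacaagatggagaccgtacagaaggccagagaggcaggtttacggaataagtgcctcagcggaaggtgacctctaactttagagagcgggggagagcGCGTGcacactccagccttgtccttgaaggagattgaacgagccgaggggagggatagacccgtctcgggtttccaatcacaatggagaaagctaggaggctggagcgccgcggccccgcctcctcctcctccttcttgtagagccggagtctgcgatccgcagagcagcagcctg
Slc16a1, chr3:104638414-104638713, plus strand: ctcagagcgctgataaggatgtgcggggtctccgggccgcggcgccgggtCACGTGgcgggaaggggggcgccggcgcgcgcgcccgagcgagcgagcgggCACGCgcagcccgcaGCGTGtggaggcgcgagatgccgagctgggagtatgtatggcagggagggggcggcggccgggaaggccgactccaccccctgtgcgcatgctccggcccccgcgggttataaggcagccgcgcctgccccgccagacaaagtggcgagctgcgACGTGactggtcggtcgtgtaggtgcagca
Adpgk, chr9:59291322-59291621, plus strand: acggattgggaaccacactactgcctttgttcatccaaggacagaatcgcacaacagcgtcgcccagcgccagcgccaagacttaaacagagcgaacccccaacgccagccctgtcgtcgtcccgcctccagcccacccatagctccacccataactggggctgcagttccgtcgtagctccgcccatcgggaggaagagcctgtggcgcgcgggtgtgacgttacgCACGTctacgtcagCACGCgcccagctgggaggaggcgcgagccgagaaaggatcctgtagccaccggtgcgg

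The Fbp1 window holds neither core, the Pgk1 window 2 ACGTG, the Ldhb window 1 GCGTG, the Slc16a1 window 3 ACGTG and 2 GCGTG, and the Adpgk window 1 of each. RefSeq windows were found for 34 of the 35 members, 47 in all. ACGTG was present in 44.7% of them and in 19.6% of all 32851 windows, GCGTG in 59.6% and 32.4%, and at least 1 of the pair in 80.9% and 43.8%. The STAT6 motif with 4 free bases at its centre, bound by the factor downstream of the interleukin-4 receptor, was present in 10.6% of member windows and 6.95% of all windows. Base composition was not matched between these sets, and a match of letters does not show a site in use.

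Most members were measured in several gates. Model against Control, 235 pairs of member and gate were measured in the 10 gates with at least 50 cells in both libraries. Of these, 55 were called higher (23.4%, beside 14.0% of all 57757 pairs of gene and gate) and 17 lower (7.23%, beside 12.1%). PD00 against Model, 8 of 297 pairs in 12 gates were called higher (2.69%, beside 3.70% over all genes) and 12 lower (4.04%, beside 2.88%). PD00 against Control, 47 of 211 pairs in 9 gates were called higher (22.3%, beside 17.3%) and 13 lower (6.16%, beside 11.1%). The 3 comparisons share libraries, so their counts are not independent. In these 3 comparisons 30 of the 35 members were called in at least 1 gate, and Slc2a1, Slc2a3, Pfkl, Pfkm and Rpia in none. Slc2a1 and Slc2a3 carry glucose into the cell, Pfkl and Pfkm are the liver and muscle forms of phosphofructokinase, and Rpia interconverts pentose phosphates. The map of Model over Control ratios shows where the calls lie.

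**Figure D1:**
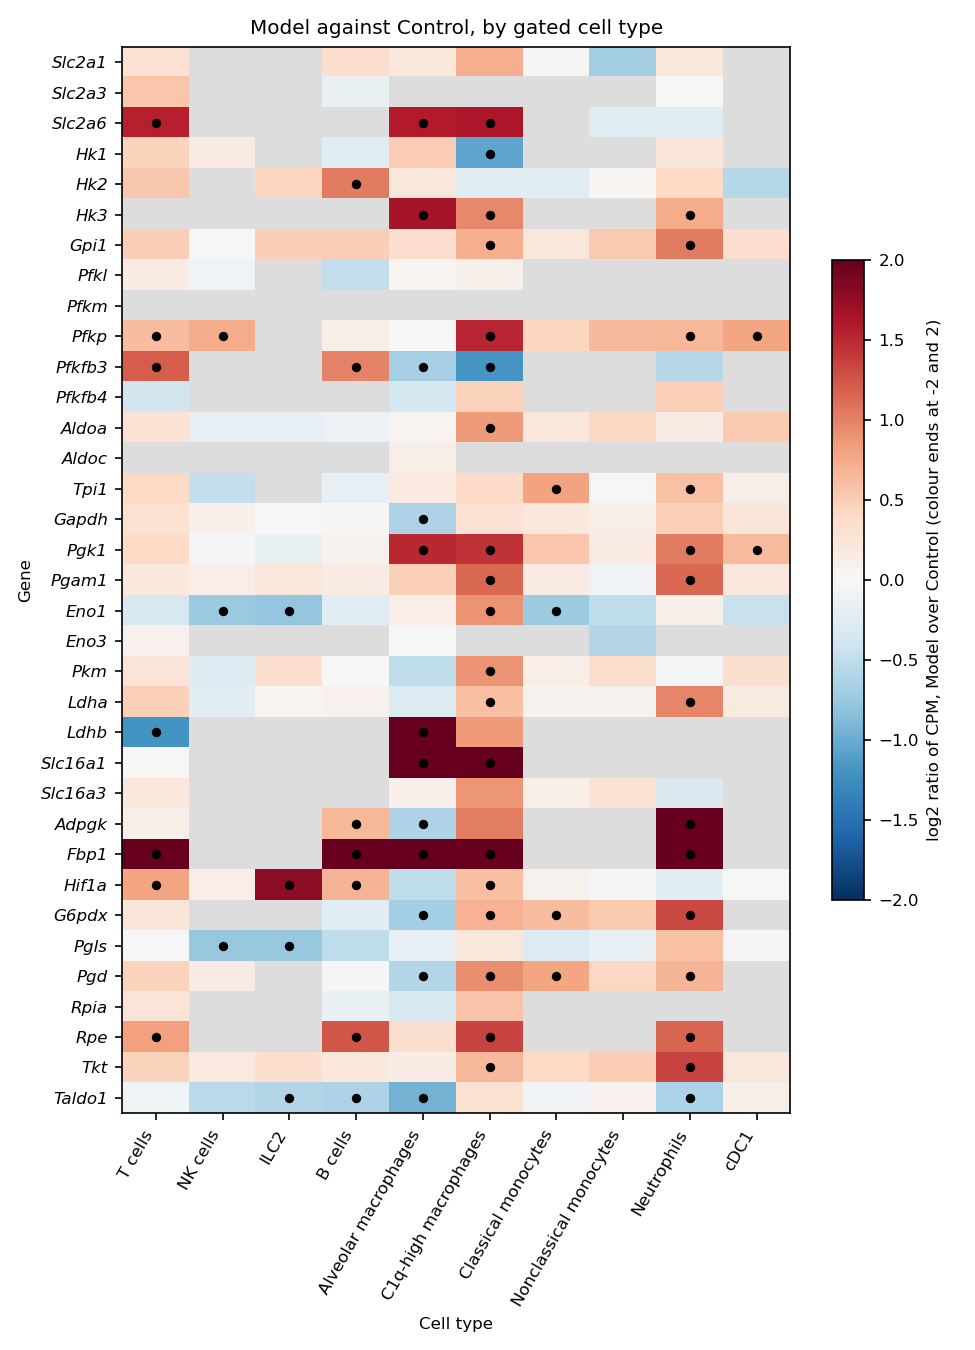
Log2 ratio of CPM, Model over Control, for the 35 members (one line per gene, in order of role) in 10 gates, with colour ends at -2 and 2, grey where a pair had under 50 UMIs and black dots on calls. C1q-high macrophages carry 19 calls, neutrophils 14 and alveolar macrophages 12, while nonclassical monocytes carry 0. Nonclassical monocytes gained calls under other settings, such as 1 more marker required.

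A few members were concentrated in 1 gate. Slc16a3, which exports lactate, stood at 1441 CPM in PD00, 1238 in Model and 1517 in Control neutrophils, and the next gate with at least 50 cells in its library was 4.20-fold, 3.1-fold and 7.88-fold lower. Slc2a3, a high-affinity glucose transporter, was also highest in neutrophils, at 207, 178 and 179 CPM. Neither transporter was called in neutrophils between treatments.

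Eno3, the muscle form of enolase, marked the nonclassical monocytes, the patrolling blood monocytes, at 109 CPM in PD00, 152 in Model and 228 in Control. The next gate with at least 50 cells was 11.4-fold, 28.6-fold and 39.9-fold lower. The levels lie in the order PD00, Model, Control. PD00 against Control, Eno3 was 0.481 (95% interval 0.331 to 0.689) and called lower, while Model against Control, at 0.669, it was not called. Migratory dendritic cells, with 41, 38 and 7 cells, held 87.7, 123 and 201 CPM.

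Aldoc, an aldolase form best known from brain, was highest in alveolar macrophages, at 19.8 CPM in PD00, 36.2 in Model and 33.4 in Control. Hk2, an inducible hexokinase that traps glucose in the cell, was highest in C1q-high macrophages at 389, 343 and 398 CPM. The plot by gate shows how far these members separate the cell types.

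**Figure D2:**
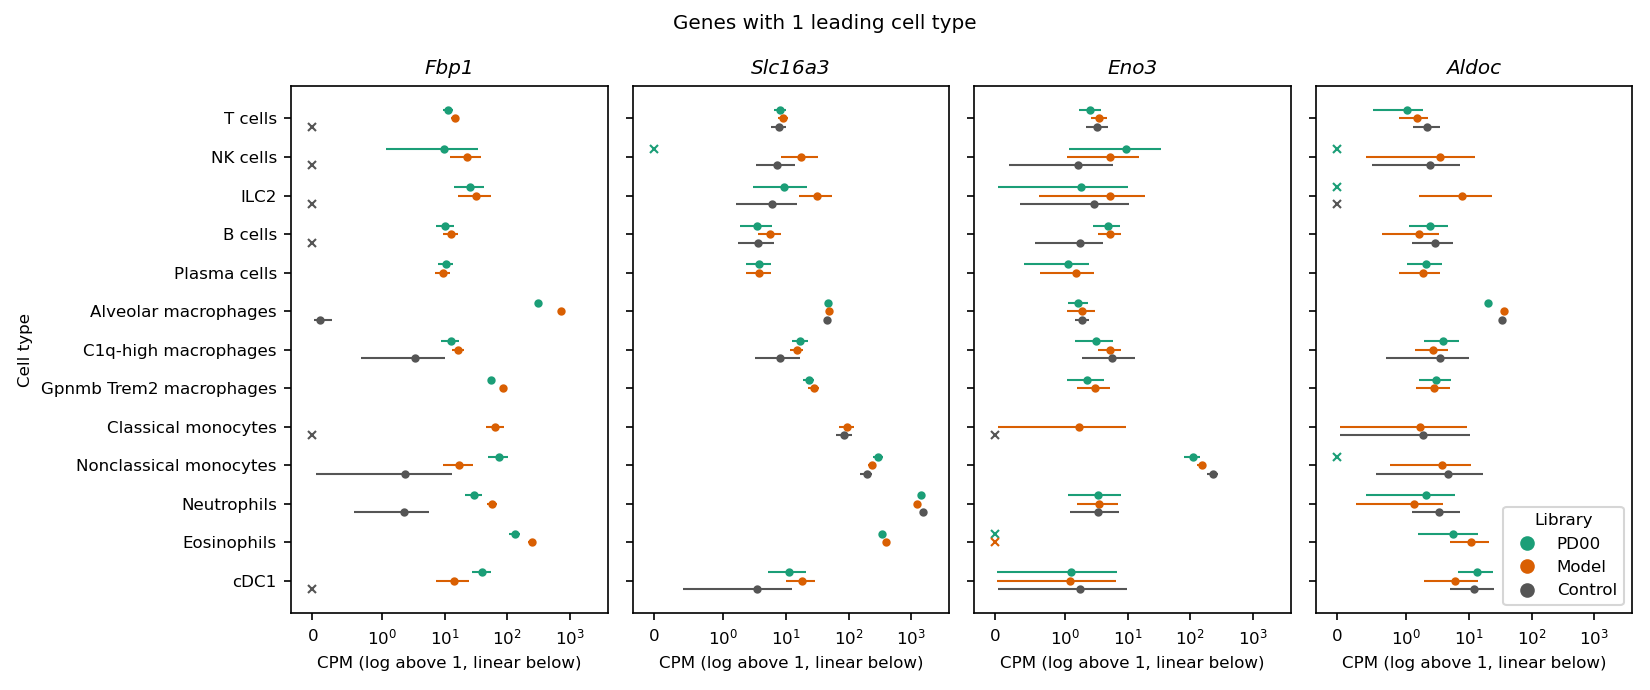
CPM of Fbp1, Slc16a3, Eno3 and Aldoc in each gate and library, with bars as exact 95% Poisson intervals of counting error, and libraries with under 50 cells in a gate not drawn. Fbp1 stands at 311 CPM in PD00 and 714 in Model alveolar macrophages, against 0.113 in Control, while Slc16a3 peaks in neutrophils of all 3 libraries and Eno3 in nonclassical monocytes.

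In alveolar macrophages, the resident phagocytes of the airspaces, the members split evenly: of 33 measured Model against Control, 6 were called higher (12.1% of all genes were) and 6 lower (25.1% of all genes were). The median log2 ratio was 0.10 over the members and -0.22 over all genes. The largest difference was in Fbp1, the gluconeogenic bisphosphatase, which held 5474 UMIs in PD00 cells and 6450 in Model cells, against 4 in Control cells. That is 311 CPM in PD00, 714 in Model and 0.113 in Control, and a ratio of 6318 (2466 to 23195) Model over Control. At least 1 Fbp1 UMI was found in 76.8% of PD00 cells, 87.2% of Model cells and 0.165% of Control cells. At least 5 UMIs were found in 358 of 909 PD00 cells (39.4%, exact 95% interval 36.2 to 42.6) and in 285 of 446 Model cells (63.9%, 59.3 to 68.4). No Control cell out of 2427 had as many, with an exact upper limit of 0.152%. Median depth in this gate was 18721 UMIs per cell in PD00, 19189 in Model and 14713 in Control.

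Genes of glucose transport within the cell and of glucose phosphorylation were among the alveolar macrophage calls. Slc2a6, a glucose transporter of intracellular membranes, stood at 14.8 CPM in PD00, 24.1 in Model and 7.99 in Control, and Hk3, a hexokinase of myeloid cells, at 13.6, 24.2 and 7.71. Both were higher in Model than in Control, 3.02-fold (2.52 to 3.61) and 3.14-fold (2.62 to 3.77). The bifunctional enzyme Pfkfb3, whose product activates phosphofructokinase, had 11.2, 10.7 and 17.0 CPM and was lower Model against Control (0.631), as was the ADP-dependent glucokinase Adpgk with 12.1, 12.0 and 18.4 CPM (0.649).

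In lower glycolysis 2 neighbouring enzymes differed in opposite directions. Pgk1, the phosphoglycerate kinase that makes the first ATP of the pathway, held 195 CPM in PD00, 222 in Model and 77.8 in Control, 2.86-fold (2.69 to 3.03) higher in Model than in Control. Gapdh, the dehydrogenase just before it, held 701, 734 and 1128 CPM, a ratio of 0.651 (0.634 to 0.668). The pyruvate kinase Pkm, at 247, 222 and 317 CPM, was not called.

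Both lactate genes that were called stood higher. Ldhb, the lactate dehydrogenase form that favours pyruvate, had 15.6 CPM in PD00, 14.4 in Model and 1.69 in Control, 8.49-fold (6.21 to 11.7) higher in Model than in Control. The lactate transporter Slc16a1 had 30.5, 37.4 and 6.04 CPM, 6.19-fold (5.20 to 7.38) higher. In each of these genes both the PD00 and the Model library lie several-fold above the Control library, while Ldha, at 301, 268 and 325 CPM, was not called.

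Pentose phosphate genes were lower in Model than in Control alveolar macrophages where called. G6pdx, the first enzyme of the oxidative branch, had 47.7 CPM in PD00, 45.9 in Model and 73.7 in Control (Model over Control 0.623), and Pgd, which makes the second NADPH, had 219, 186 and 280 CPM (0.665). Taldo1, the transaldolase of the non-oxidative branch, had 334, 282 and 544 CPM (0.519, 0.498 to 0.541). Tkt, the transketolase beside it, was not called at 158, 202 and 183 CPM. When ratios were centred on the median of all genes, 5 of the 6 lower calls of this gate were lost: Pfkfb3 (0.736), Adpgk (0.757), Gapdh (0.759), G6pdx (0.727) and Pgd (0.776). Taldo1 stayed called at 0.605.

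The alveolar gate does not hold like cells in the 3 libraries: Plet1 differs as given above, and 289 PD00, 184 Model and 349 Control cells had only the minimum of 5 markers. With 1 more marker required, the Model against Control calls of Gapdh, G6pdx and Pgd were lost in this gate and a call of Hk1 was added. The part of these differences in the ratios was not otherwise tested. Among cells without a UMI of the cycling genes Mki67 or Top2a, the same 6 members were called higher (11.2% of all genes were) and 5 lower (26.1% of all genes were).

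**Figure D3:**
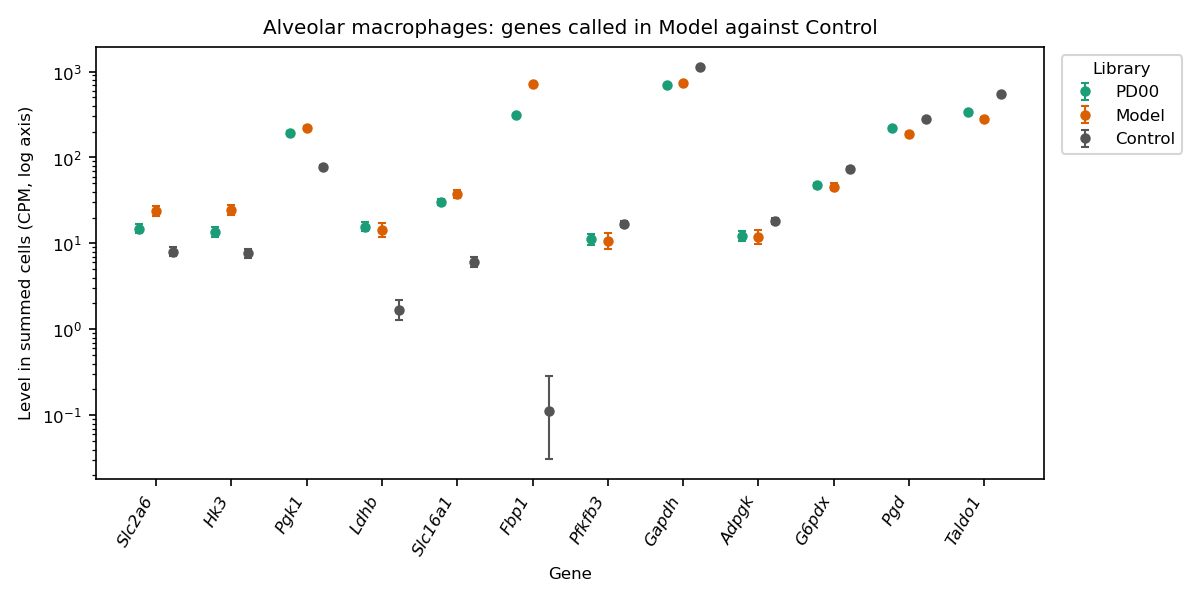
CPM on a log axis of the 12 members called Model against Control in alveolar macrophages, for the 3 libraries, with bars as exact 95% Poisson intervals of counting error. PD00 and Model lie on the same side of Control for all 12, above it for 6 and below it for 6.

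Fbp1 was called higher Model against Control in 4 other gates, but at far lower levels. Alveolar macrophages held 57.4% of all Fbp1 UMIs in PD00 and 47.1% in Model. Most of the rest lay in cells that were not assigned to a single immune gate. T cells held 11.5 CPM in PD00, 14.5 in Model and 0 in Control, and B cells 10.1, 12.7 and 0. Against a floor of 3 counts in the Control sum these are at least 38.1-fold and at least 12.0-fold higher in Model. A UMI was found in 6.15% of Model T cells (median depth 4399 UMIs) and 6.27% of Model B cells (median depth 4349.5), against 87.2% of Model alveolar macrophages.

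Free RNA in droplets can give a cell UMIs of a gene it does not express. Immunoglobulin Ighg1, made by plasma cells, was set beside Fbp1 for this reason, at 741 CPM in Model T cells, 895 in B cells, 681 in C1q-high macrophages and 3338 in eosinophils. Per CPM of Ighg1 in the Model library, Fbp1 stood at 0.0196 in T cells, 0.0142 in B cells and 0.0242 in C1q-high macrophages, against 0.942 in alveolar macrophages. The part of free RNA in the T cell, B cell and C1q-high Fbp1 calls was not tested. The ratio was 0.0381 in Model neutrophils, 0.0732 in eosinophils and 0.106 in Gpnmb Trem2 macrophages, and the alveolar marker Plet1 per Ighg1 was 0.0369, 0.0581 and 0.0595 there, beside 0.0183 in T cells. Whether RNA of alveolar macrophages in these gates accounts for their Fbp1 was not tested.

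In C1q-high macrophages, an interstitial macrophage gate, members of nearly every role were higher in Model than in Control. Of 31 measured, 17 were called higher (14.1% of all genes were) and 2 lower (12.5% of all genes were), with a median log2 ratio of 0.73 over the members and 0.05 over all genes. The 17 include Fbp1, at 16.5 CPM in Model.

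The upper pathway was represented by Pfkp, the platelet form of phosphofructokinase, with 136 CPM in PD00, 144 in Model and 50.2 in Control, 2.88-fold (2.12 to 4.0) higher in Model than in Control. The isomerase Gpi1 had 230, 244 and 147 CPM and the aldolase Aldoa 269, 306 and 170 CPM, 1.66-fold and 1.80-fold higher in Model. In these 3 genes both PD00 and Model lie above Control. Hk3 and Slc2a6 were also called higher, on 10 and 5 Control UMIs.

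Below glyceraldehyde phosphate the steps down to lactate were called higher, apart from Gapdh. Pgk1 held 129 CPM in PD00, 154 in Model and 57.0 in Control, 2.71-fold (2.03 to 3.69) higher in Model than in Control. The mutase Pgam1 held 233, 241 and 109 CPM, 2.21-fold (1.79 to 2.75) higher, and the enolase Eno1 102, 89.5 and 47.9 CPM, 1.87-fold (1.36 to 2.63) higher. Pkm, at 224, 254 and 137 CPM, was 1.86-fold higher and Ldha, at 183, 189 and 124 CPM, 1.52-fold higher. Gapdh was not called at 375, 484 and 396 CPM.

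Of the 7 pentose phosphate members 4 were called higher in this gate and 0 lower. G6pdx had 45.4 CPM in PD00, 42.6 in Model and 26.2 in Control, Pgd 133, 147 and 77.5 CPM and Tkt 135, 136 and 86.7 CPM. They were 1.62-fold, 1.90-fold and 1.57-fold higher in Model than in Control, and Rpe 2.54-fold on 66 Model and 5 Control UMIs. Taldo1, at 140, 167 and 135 CPM, was not called, nor were Pgls and Rpia. Hif1a, the oxygen-sensing regulator, had 150, 128 and 84.4 CPM, 1.52-fold (1.19 to 1.96) higher in Model. Centred on the median of all genes, Hif1a, Ldha (both 1.47-fold) and Hk3 (1.88-fold, 0.982 to 4.04) were no longer called in this gate. Scaled without mitochondrial, ribosomal protein and haemoglobin genes, the same members were lost. With 1 more marker required, Hk3, Hif1a, G6pdx and Rpe were lost and Rpia was added. With cells weighted equally, Hk3, Ldha, Hif1a and G6pdx were lost and Adpgk was added. At 10% mitochondrial UMIs, Hk3 and Rpe were lost and Slc2a1 was added.

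The members called lower were Hk1, the housekeeping hexokinase, with 21.8 CPM in PD00, 13.2 in Model and 27.4 in Control (Model over Control 0.481, 0.295 to 0.808), and Pfkfb3 with 60.3, 50.5 and 114 CPM (0.443, 0.349 to 0.566). Control cells of this gate numbered 162 and had a median of 5140.5 UMIs, against 7787 in PD00 and 9774 in Model, and the part of this difference was not tested. Among cells without a Mki67 or Top2a UMI, 15 of 30 measured members were called higher (15.9% of all genes were) and 2 lower (12.1% of all genes were).

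**Figure D4:**
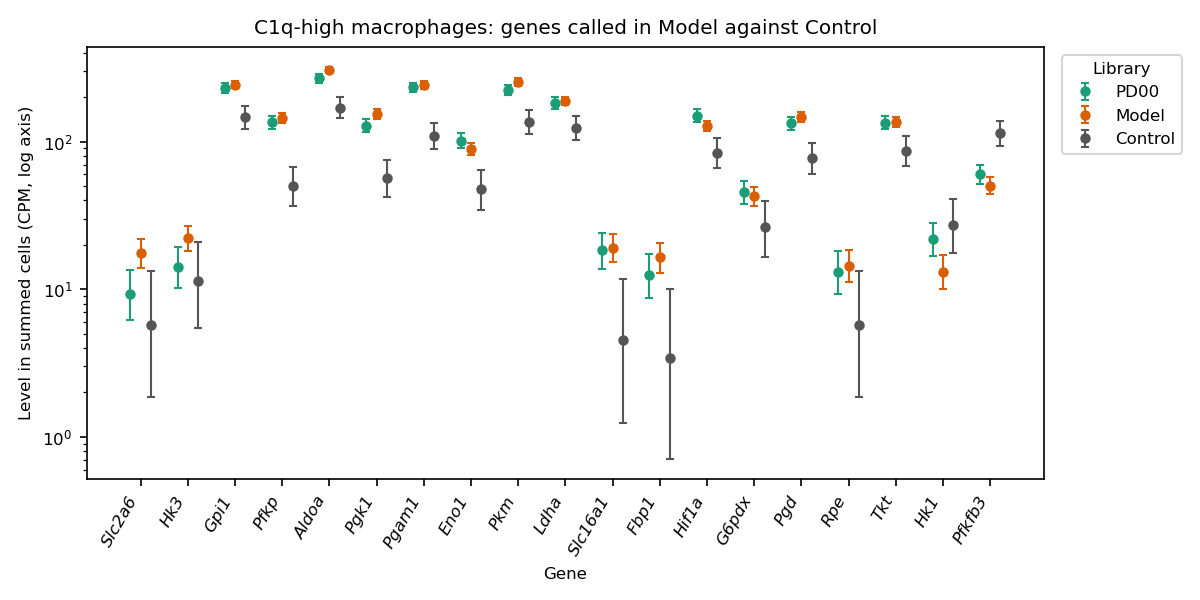
CPM on a log axis of the 19 members called Model against Control in C1q-high macrophages, for the 3 libraries, with bars as exact 95% Poisson intervals of counting error. Pfkp lies at 136 and 144 CPM in PD00 and Model against 50.2 in Control, and Pfkfb3 at 60.3 and 50.5 against 114.

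In neutrophils 13 of 28 measured members were called higher Model against Control (21.5% of all genes were) and 1 lower (6.72% of all genes were), with a median log2 ratio of 0.53 over the members and 0.19 over all genes. Adpgk, which phosphorylates glucose with ADP in place of ATP, stood apart: 255 UMIs in PD00, 398 in Model and 21 in Control, or 174, 177 and 11.6 CPM. It was 15.3-fold (9.84 to 24.9) higher in Model than in Control.

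Of the 6 pentose phosphate members measured, 4 were called higher and 1 lower. Tkt had 243 CPM in PD00, 255 in Model and 100 in Control, 2.55-fold (2.15 to 3.03) higher in Model than in Control, and G6pdx, source of the NADPH that the neutrophil oxidase consumes, had 98.5, 126 and 50.4 CPM, 2.50-fold (1.97 to 3.21) higher. Rpe, the epimerase of the non-oxidative branch, was 2.24-fold higher on 64 Model and 23 Control UMIs. Taldo1 was the 1 member called lower, with 1105 CPM in PD00, 1071 in Model and 1669 in Control (0.642, 0.608 to 0.677, but 0.730 and not called with cells weighted equally). Transaldolase and transketolase thus stood on opposite sides of Control in the PD00 and Model libraries.

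Glycolytic members higher in Model neutrophils were Gpi1, at 394 CPM in PD00, 384 in Model and 186 in Control (2.06-fold), Pgam1, at 118, 134 and 60.4 CPM (2.22-fold), Pgk1, at 124, 154 and 74.8 CPM (2.06-fold), and Ldha, at 194, 258 and 131 CPM (1.97-fold). Hk3, Pfkp, Tpi1 and Pgd were higher by 1.5-fold to 1.68-fold, and centred on the median of all genes these 4 were not called, at 1.32-fold to 1.47-fold. Fbp1 was called as well, at 29.4, 57.1 and 2.22 CPM, beside the alveolar marker values given above.

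The libraries differed in immature neutrophils, cells with UMIs of at least 3 of the granule genes Camp, Ltf, Ngp, Lcn2 and Mmp8. These made up 68 of 614 PD00, 107 of 829 Model and 11 of 875 Control neutrophils. Without them 8 of 27 measured members were called higher Model against Control (22.4% of all genes were) and 0 lower (4.25% of all genes were): Gpi1, Pfkp, Pfkfb4, Tpi1, Pgk1, Pgam1, Fbp1 and G6pdx. In the remaining neutrophils Adpgk held 17.6 CPM in PD00, 19.3 in Model and 4.55 in Control and was not measured Model against Control, with 32 and 8 UMIs. Tkt held 112, 125 and 90.4 CPM there, a Model over Control ratio of 1.38.

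Set against the other neutrophils of their own library, immature neutrophils differed in most measured members. In the Model library 13 of 28 were called higher (9.11% of all genes were) and 7 lower (38.6% of all genes were), and in the PD00 library 13 of 25 higher (9.28%) and 5 lower (35.1%). Adpgk held 718 CPM in immature and 17.6 in other PD00 neutrophils, and 623 and 19.3 in the Model library, ratios of 40.8 (25.8 to 67.9) and 32.2 (22.4 to 47.8). Tkt held 697 and 112 CPM in PD00 and 623 and 125 in Model, ratios of 6.23 and 4.98. The immature cells held more of part of the glycolytic trunk (Gpi1, Gapdh, Pgk1, Pgam1, Eno1, Ldha) and of the oxidative pentose branch (G6pdx, Pgls, Pgd) in both libraries. Of other trunk genes, Tpi1 and Pkm were called in neither library and Aldoa was called higher only in PD00. Pfkp was called lower in PD00 (0.447) and not called in Model (0.684).

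Some transport genes ran the other way. Slc16a3 held 923 CPM in immature and 1591 in other PD00 neutrophils, and 856 and 1374 in the Model library, ratios of 0.580 and 0.623. The glucose transporters Slc2a1 and Slc2a6 and the regulator Hif1a were also called lower in immature cells of both libraries. Slc2a3 was not lower in immature cells. It held 251 CPM in immature and 195 in other PD00 neutrophils, and 208 and 168 in the Model library, and was not called. This comparison within libraries was chosen after the data were seen, and the markers that define immature cells are not members. Immature cells held more UMIs per cell. The sums were 587631 UMIs in 107 immature and 1655478 in 722 other Model neutrophils, and 327305 in 68 and 1135123 in 546 in PD00. The part of depth in these ratios was not tested.

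**Figure D5:**
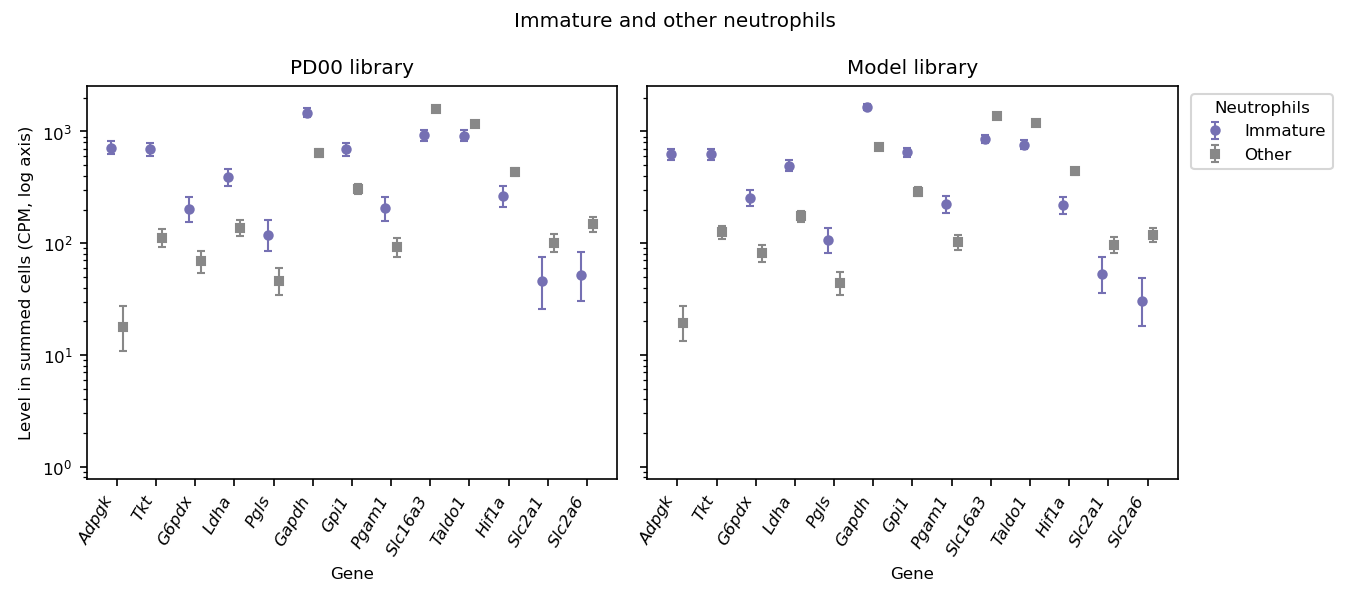
CPM on a log axis of 13 members in immature and other neutrophils, with a panel each for the PD00 and the Model library and bars as exact 95% Poisson intervals of counting error. Adpgk lies at 718 and 623 CPM in immature cells against 17.6 and 19.3 in other cells, while Slc16a3 lies lower in immature cells.

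In T cells 6 of 32 measured members were called higher Model against Control (21.7% of all genes were) and 1 lower (7.31% of all genes were), shares no larger than those over all genes. The median log2 ratio was 0.30 over the members and 0.19 over all genes. Hif1a held 454 CPM in PD00, 399 in Model and 230 in Control T cells, 1.73-fold (1.64 to 1.83) higher in Model than in Control. Pfkfb3 had 12.7, 11.3 and 4.84 CPM, 2.33-fold (1.62 to 3.41) higher, and Rpe 26.0, 27.1 and 15.3 CPM, 1.77-fold (1.44 to 2.20) higher. Pfkp, at 108, 109 and 71.6 CPM, was 1.53-fold higher, and Slc2a6 was 2.93-fold higher on 46 and 9 UMIs. Fbp1, at the low levels given above, is the sixth.

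Ldhb was the T cell member called lower, at 6.34 CPM in PD00, 7.75 in Model and 17.7 in Control (Model over Control 0.438, 0.337 to 0.568). This is opposite to its direction in alveolar macrophages. The main trunk differed little: Gapdh, Aldoa, Pgk1, Pkm and Ldha had Model over Control ratios between 1.20 and 1.40 and were not called. Centred on the median of all genes, or scaled without mitochondrial, ribosomal protein and haemoglobin genes, Pfkp was not called, at 1.34 and 1.27. In the second scaling Hif1a (1.44) and Rpe (1.48) were not called either.

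T cells with a UMI of Il1rl1, which encodes the interleukin 33 receptor ST2 of type 2 helper and some regulatory cells, numbered 762 in PD00, 688 in Model and 50 in Control. Against the other T cells of the Model library they had 0 of 30 members called higher (6.92% of all genes were) and 3 lower (10.3% of all genes were): Pfkl, at 11.7 and 22.1 CPM, Pfkp, at 72.2 and 123 CPM, and Ldhb, at 2.99 and 9.50 CPM. In the PD00 library 1 member, Pfkfb3, was called higher (6.83% of all genes were) and 1, G6pdx, lower (8.20%). Without the ST2-positive cells 5 of 31 members were called higher Model against Control (21.9% of all genes were) and 1 lower (5.85%). Without cells holding a Mki67 or Top2a UMI the counts were 5 of 30 higher (22.0%) and 1 lower (7.27%).

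Among the other lymphoid gates Hif1a showed the largest difference in ILC2, with 300 CPM in PD00, 322 in Model and 92.8 in Control, 3.47-fold (2.54 to 4.78) higher in Model than in Control. It was the only 1 of 13 measured members called higher there (12.5% of all genes were), and Eno1, Pgls and Taldo1 were called lower (14.9% of all genes were). In NK cells Pfkp was higher, at 205 CPM in Model and 122 in Control (7.10% of all genes were called higher), and Eno1 and Pgls lower (11.4%).

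B cells had 6 of 26 members called higher (11.5% of all genes were) and 1 lower (8.07% of all genes were). Hk2 held 43.0 CPM in PD00, 30.5 in Model and 14.8 in Control, 2.06-fold (1.44 to 2.99) higher in Model than in Control, and Hif1a 148, 131 and 81.6 CPM, 1.61-fold higher. Pfkfb3, Adpgk and Rpe were higher by 1.58-fold to 2.37-fold, Fbp1 had the low levels given above, and Taldo1 was lower at 86.5 CPM in Model against 132 in Control.

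Monocytes and dendritic cells gave few calls. Classical monocytes, with 79 Model and 75 Control cells, had 3 of 19 members called higher (Tpi1, G6pdx and Pgd, 7.72% of all genes) and Eno1 lower (5.73% of all genes). Nonclassical monocytes had 0 of 21 called in either direction (6.52% and 6.79% of all genes), and type 1 conventional dendritic cells (cDC1) had Pfkp and Pgk1 of 15 called higher (14.2% of all genes) and 0 lower (10.4%). Pfkp held its highest level in cDC1, at 331 CPM in PD00, 408 in Model and 235 in Control. Monocyte calls depended on the settings. With 1 more marker required, Slc2a1, Gpi1, Pfkp, Aldoa, Eno1, Pkm and Tkt were called in nonclassical monocytes. With cells weighted equally, Gpi1, Pfkp, Aldoa, Eno1 and Eno3 were called there. Eno3 was also called when scaled without mitochondrial, ribosomal protein and haemoglobin genes, and Slc2a1 with doublets kept. Effects of the earlier gates are given under the processing alternatives.

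Few members separated PD00 from Model. In T cells 0 of 33 measured members were called (2.85% of all genes higher and 2.43% lower), as in NK cells (0 of 13, beside 4.75% and 2.02%) and plasma cells (0 of 26, beside 4.20% and 2.59%). The T cell members had a median log2 ratio of -0.06, beside 0.07 over all genes. The PD00 over Model ratio was 0.889 (0.862 to 0.917) for Gapdh, 1.14 (1.10 to 1.18) for Hif1a and 1.25 (1.16 to 1.34) for Hk2. The absence of a call does not show that the libraries are alike.

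The gate with the most calls between PD00 and Model was the alveolar macrophages, where 0 of 32 members were called higher (2.91% of all genes were) and 4 lower (3.41% of all genes were). Fbp1 had a PD00 over Model ratio of 0.436 (0.421 to 0.452), Aldoc 0.547 (0.469 to 0.638), Hk3 0.561 (0.465 to 0.677) and Slc2a6 0.615 (0.512 to 0.740). In Gpnmb Trem2 macrophages Pfkfb3 and Fbp1 of 31 members were called lower (2.85% of all genes were) and 0 higher (2.67%). Fbp1 was lower in PD00 there, at 55.3 CPM in PD00 and 87.0 in Model (0.635), in neutrophils, at 29.4 and 57.1 CPM (0.515), and in eosinophils, at 132 and 244 CPM (0.538). The neutrophil ratio was 0.747 with doublets kept and the eosinophil ratio 0.839 with cells weighted equally. In the eosinophil gate 291 PD00 and 286 Model cells had only the minimum of 2 markers.

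Elsewhere C1q-high macrophages had Hk1 higher, at 21.8 CPM in PD00 and 13.2 in Model (2.80% of all genes were called higher), and Slc2a6 and Hk3 lower (2.93%). ILC2 had Hk2 of 14 members lower, at 98.9 CPM in PD00 and 149 in Model (3.1% of all genes), and 0 higher (8.56%). Eno1 was called higher in PD00 in 4 gates: in B cells, at 112 CPM in PD00 and 69.4 in Model, in nonclassical monocytes, at 197 and 131 CPM, in eosinophils, at 133 and 85.5 CPM, and in cDC1, at 90.3 and 53.5 CPM. Ratios lay between 1.5 and 1.69. The nonclassical monocyte call was lost at 10% mitochondrial UMIs, with doublets kept, centred on the median of all genes and under some earlier gates. The eosinophil call was lost at 10% mitochondrial UMIs and with cells weighted equally, and the cDC1 call with cells weighted equally. The B cell call was kept in these settings. B cells had 3 of 28 members higher (3.74% of all genes were) and 0 lower (1.52%), eosinophils 1 of 23 higher (3.73%) and 2 lower (2.90%), nonclassical monocytes 1 of 22 higher (4.77%) and 0 lower (4.66%), and cDC1 1 of 16 higher (6.17%) and 0 lower (2.17%). The other B cell members were Slc2a6 and Slc16a1, on 34 and 33 PD00 UMIs, and the lower eosinophil members Fbp1 and Pfkp, with Pfkp at 65.1 CPM in PD00 and 111 in Model. Eno1b, a near-identical copy, held 199 UMIs in PD00, 284 in Model and 138 in Control over all kept cells, against 7287, 6371 and 5728 of Eno1, so that reads of the pair may be split by the counting. Pfkfb3 was higher in PD00 neutrophils, at 45.8 CPM against 22.7 in Model (2.02, 1.38 to 2.96), and with Fbp1 lower these were the calls among 28 neutrophil members (3.95% of all genes higher, 4.94% lower).

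PD00 against Control gave in alveolar macrophages 6 of 33 members higher (11.9% of all genes were) and 7 lower (19.9% of all genes were). In C1q-high macrophages it gave 14 of 27 higher (16.5%) and 1 lower (11.6%), in neutrophils 9 of 27 higher (21.0%) and 1 lower (5.86%), and in T cells 7 of 31 higher (26.4%) and 1 lower (6.98%). Since this comparison shares a library with each of the others, it is given as counts. Pfkfb4, which raises or lowers the same activator as Pfkfb3, was called only here among the 3 main comparisons, at 30.4 CPM in PD00 and 48.8 in Control alveolar macrophages (0.622, 0.563 to 0.686). Centred on the median of all genes it was 0.694 and not called.

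Gpnmb Trem2 macrophages, lipid-handling macrophages that were nearly absent from the Control library, could be set against alveolar macrophages of their own library. In the Model library 6 of 32 members were called higher (8.70% of all genes were) and 6 lower (11.9% of all genes were), and in the PD00 library 4 higher (8.31%) and 5 lower (13.4%). Slc2a1, the basal glucose transporter, held 37.9 CPM in Gpnmb Trem2 and 13.3 in alveolar macrophages of the PD00 library and 49.5 and 16.7 in the Model library, ratios of 2.86 and 2.96. Hk3, Ldhb and Hif1a were also higher in Gpnmb Trem2 macrophages of both libraries. Fbp1 held 55.3 and 311 CPM in PD00 and 87.0 and 714 in Model, ratios of 0.177 and 0.122, and Aldoc and Slc16a3 were lower in both as well. The gate admits no cell with more than 3 alveolar markers, and this comparison was chosen after the data were seen.

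Other genes of the pathway were taken from 5 lists of 69 genes. In T cells 6 of 12 measured hypoxia response genes were called higher Model against Control (21.7% of all genes were) and 0 lower, with a median log2 ratio of 0.66. Epas1, the other inducible hypoxia factor, held 93.0 CPM in Model and 26.0 in Control T cells, 3.58-fold (3.09 to 4.17) higher, and Egln3, Vegfa, Ndrg1, Ddit4 and Ero1l were 1.90-fold to 2.81-fold higher; the median over all genes was 0.19. In alveolar macrophages 3 of 12 hypoxia genes were higher (12.1% of all genes were) and 1 lower (25.1%). Prps1, which turns ribose phosphate into the precursor of nucleotides, held 59.1 CPM in Model and 17.9 in Control alveolar macrophages, 3.30-fold (2.93 to 3.70) higher, 1 of 2 higher among the 6 measured pentose phosphate genes. Txnip, which restrains glucose uptake, was 2.26-fold higher in Model alveolar macrophages and lower in Model T cells (0.556, 0.524 to 0.589).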

How the data were processed

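For each of the PD00, Model and Control libraries of mouse lung the authors deposited 1 matrix of raw UMI counts by gene and cell barcode, with no scaling. Per the labels' protocols the libraries used the 10x Chromium 3' chemistry, version 3. Cell Ranger 3.1.0, STAR and the build mm10 are named per the submitters' processing notes. Per the file headers, cellranger 5.0.0 wrote the matrices. Only barcodes already called as cells were at hand, so free RNA was not subtracted.

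Barcodes were kept from 500 UMIs and 200 genes upwards, unless over 20% of their UMIs were mitochondrial. Scrublet (scanpy 1.11.5) called 3, 0 and 421 doublets in PD00, Model and Control at its own threshold, so a score of 0.2 was used, which removed 274, 252 and 421 cells. A cell entered a gate when it held UMIs of a minimum number of markers, between 2 and 5, and cells past several gates (697, 1044 and 714) were left out. Past no gate were 1964, 2570 and 941 cells.

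The gates were set after the data were seen. A score-based assignment was set aside first because it moved Model alveolar macrophages into another gate, and clusters were used as a check. Of the 4 versions of the marker-count gates that followed, all were run with the members' values visible. They differ in the rules for monocytes, which also moves cells of other gates, and the 3 earlier ones are kept as alternatives. UMIs were summed per gate and library (python 3.11.15, numpy 2.4.6, pandas 2.3.3, matplotlib 3.10.9) where both libraries had at least 50 cells. Ratios of CPM have exact conditional-binomial intervals and shares of cells exact Clopper-Pearson intervals, both at 95% (scipy 1.17.1), and a count of 0 was set at a floor of 3 counts per sum. The interval and call calculations were run on simulated Poisson counts with known ratios. These counts hold no variation between cells or animals, so they check the calculation only.

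The members and the gene lists were chosen with earlier results of these data known. Values are given for members called in a main gate or highest in 1 gate, and the others by counts and range. Comparisons within a library, and those without cycling, ST2-positive or immature cells, were added after the data were seen. Promoter windows come from RefSeq tables, and gene names from the count table. Results were recomputed with doublets left in, with 1 more marker required per gate, with stricter limits on mitochondrial UMIs (10%) and on genes (500), with other scalings, at 20 or 200 UMIs per pair of sums, at a 2-fold minimum and, for shares, after thinning to 500 UMIs.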

Additional observations from a re-analysis of the deposited data

Results flagged for a closer look

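Several members were called in opposite directions in 2 gates of the same pair of libraries. None of these differences between gates was tested, since each library is a single sample, and several rest on few UMIs.

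Model against Control, Pfkfb3 was higher in T cells (ratio 2.33) and lower in C1q-high macrophages (0.443). Eno1 was higher in C1q-high macrophages (1.87) and lower in ILC2 (0.583). Ldhb was higher in alveolar macrophages (8.49) and lower in T cells (0.438). Adpgk was higher in neutrophils (15.3) and lower in alveolar macrophages (0.649). The oxidative pentose phosphate genes split too, with G6pdx higher in neutrophils (2.50) and lower in alveolar macrophages (0.623), and Pgd higher in C1q-high macrophages (1.90) and lower in alveolar macrophages (0.665).

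PD00 against Model, Slc2a6 was higher in B cells (2.18) and lower in C1q-high macrophages (0.533), and Pfkfb3 was higher in neutrophils (2.02) and lower in Gpnmb Trem2 macrophages (0.617).

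PD00 against Control, Pfkfb3 was higher in T cells (2.62) and lower in C1q-high macrophages (0.529), Ldhb higher in alveolar macrophages (9.23) and lower in T cells (0.358), Adpgk higher in neutrophils (15.0) and lower in alveolar macrophages (0.658), and G6pdx higher in neutrophils (1.95) and lower in alveolar macrophages (0.648). Hk2 was higher in B cells (2.90) and lower in cDC1 (0.664), and Pgls higher in neutrophils (1.54) and lower in ILC2 (0.666).

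Centred on the median of all genes, the alveolar macrophage calls of Adpgk and G6pdx were lost in both comparisons with Control. The call of Pgd Model against Control and the neutrophil call of Pgls PD00 against Control were lost as well. Without immature neutrophils, PD00 over Control was 1.15 (0.788 to 1.67) for Pgls and 1.36 (0.989 to 1.86) for G6pdx, neither called. Adpgk was then not measured in either comparison with Control. G6pdx stayed called in neutrophils Model against Control, at 1.60.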

How the results depend on the processing

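No paired analysis was possible because each treatment has 1 library. Counts of called members moved most with the thresholds. Model against Control gave 72 calls, 55 higher and 17 lower, but 31 at a 2-fold minimum (28 higher, 3 lower) and 46, of which 34 higher, at 200 UMIs. PD00 against Model gave 20, 8 higher and 12 lower, but 3 at 2-fold (2 and 1) and 7 at 200 UMIs (1 and 6). The higher share was 40.0% there, 66.7% at 2-fold, 14.3% at 200 UMIs and 26.1% with cells weighted equally. PD00 against Control gave 60, 47 higher and 13 lower, but 23 at 2-fold (21 and 2). Centred on the median of all genes, its lower calls numbered 7.

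By gate, Model against Control, T cells had 7 calls, but 4 at 2-fold and 4 at 200 UMIs. Neutrophils had 14, but 8 at 2-fold and 8 without immature cells. Alveolar macrophages had 12, but 6 at 2-fold, and C1q-high macrophages 19, but 9 at 2-fold. Thinned to 500 UMIs per cell, the share of alveolar macrophages with an Fbp1 UMI was 12.9% in PD00 and 28.0% in Model, against 76.8% and 87.2% unthinned. In Model the thinned shares were 1.23% for Fbp1 in B cells, 46.2% for Slc16a3 in neutrophils, 8.43% for Eno3 in nonclassical monocytes and 3.5% for Adpgk in neutrophils, with 0.571% for Adpgk in Control neutrophils. Unthinned they were 6.27%, 83.6%, 44.0%, 12.7% and 1.37%.

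Centred on the median of all genes, 57 of the 72 Model against Control calls were kept, 15 lost and 4 added. Of the 60 PD00 against Control calls 43 were kept, and of the 20 PD00 against Model calls 18. With cells weighted equally 60, 50 and 13 were kept. With the monocyte limit applied before other cells were left out, Control alveolar macrophages numbered 2772 in place of 2427, Pgd was not called there, and neutrophils had 14 higher and 2 lower.

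The earlier gates gave 72 to 75 calls Model against Control, 19 to 22 PD00 against Model and 55 to 61 PD00 against Control, and they turned 1 call round. Pgd in nonclassical monocytes, PD00 against Control, was 1.64 as called and 0.752 with classical monocytes at 3 markers or 0.847 without the limit on alveolar markers, so its direction depends on the gate. With those 2 gates classical monocytes had 5 higher and 2 lower, and 2 higher and 1 lower, beside 3 and 1. Of 1734 alternative values for 149 results on single genes, 1688 kept direction and lay within the counting interval, 44 moved and 2 reversed. The 149 values at 20 UMIs and the 98 at 200 UMIs could not move, since these thresholds change no ratio. Centring on the median of all genes moved 21 values, and weighting cells equally moved 11. Causes were not tested. NK cells dropped out of the PD00 comparisons under the stricter gate.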

Other observations

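Pdk1, the kinase that shuts pyruvate out of the mitochondrial dehydrogenase, is not among the 35 genes but sits at their exit, and it separated PD00 from Model more sharply than any of them did in T cells. It held 65.7 CPM in PD00 T cells, 3.95 in Model T cells and 7.90 in Control T cells, a PD00 over Model ratio of 16.6 (12.6 to 22.4). It was also higher in PD00 than in Model in B cells, at 32.9 and 7.40 CPM (4.44), in plasma cells, at 9.22 and 1.31 CPM (7.04), and in alveolar macrophages, at 5.97 and 3.32 CPM (1.80). The gene was picked from a list of 12 genes of pyruvate entry after its values were seen. The other 9 measured genes of that list were not called in T cells between PD00 and Model.

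Galm, which converts glucose between its ring forms, held 14.5 CPM in Model and 2.42 in Control T cells, 6.01-fold (3.75 to 10.2) higher. Slc2a8, a glucose transporter of intracellular membranes, held 6.80 and 2.04 CPM there, 3.34-fold higher. They were the 2 called higher of 11 measured genes in the list of other glucose transport and glycolysis genes (21.7% of all genes were). In the same list 1 gene, Txnip, was called lower (7.31% of all genes were). Pdp1, the phosphatase that reopens the pyruvate dehydrogenase, held 14.2 CPM in Model and 4.21 in Control alveolar macrophages, 3.37-fold (2.64 to 4.29) higher. Mpc2, part of the mitochondrial pyruvate carrier, held 100.3 and 171 CPM there (0.587). Of 12 measured genes of pyruvate entry in this gate, 1 was called higher (12.1% of all genes were) and 2 lower (25.1% of all genes were). Vegfa, a growth factor of the hypoxia list, was 5.54-fold higher in Model than in Control C1q-high macrophages and 3.94-fold higher in alveolar macrophages. Vegfa was also called higher in T cells and B cells, but lower in classical and nonclassical monocytes. These genes come from lists chosen with earlier results known, and no difference was tested.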
